A study of Mus musculus with 13 samples.

Results

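The transcriptome of the mouse adrenal gland before induction was described from the 5 libraries titled as taken before TAM, of 13 libraries in the series. Members were chosen by title, though with earlier results of these data known. The other libraries were taken 24 hours after TAM (4 libraries) and 8 weeks after it (4 libraries), and were not used here. TAM induction is the step by which the study removes Star, and all groups are labelled as adrenal gland of C57BL/6 mice. The Cre line and its promoter, the sex and age of the mice, and whether each library came from a separate animal or from pooled glands are not given in the sources used here. The spread reported below is therefore the spread among 5 libraries, which may be technical. With 1 group there is no contrast to test, and the values are a description with no p-value.

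The adrenal gland is a pair of tissues in 1 organ. The cortex turns cholesterol into steroid hormones, by steps that pass between mitochondria and endoplasmic reticulum, with aldosterone made in the outer zona glomerulosa and corticosterone in the zona fasciculata. In mice a transient inner layer, the X-zone, borders the medulla. The medulla is made of chromaffin cells, which are derived from the neural crest and secrete catecholamines together with granins and neuropeptides. The gland lies in fat, is wrapped by a fibrous capsule and is among the most densely supplied with capillaries of all organs. In bulk tissue, fewer cells of a type and less RNA per cell cannot be told apart.

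Listed reads per library ranged from 17872396 to 25771905 and fell on 19655 transcripts of 14605 genes. Levels are given as FPKM (fragments per kilobase of transcript, relative to the read total), which is per length and so can be set side by side between genes. A share is a percentage of the listed reads of a library, which favours long transcripts. Spread among libraries was measured on log2 CPM (counts relative to the library size, scaled by TMM) in the 11643 genes with a mean of at least 5 CPM, and a gene is called variable where its highest and lowest library differ by 4-fold or more. Over all 11643 genes 417 (3.58%) were variable, and each count of variable genes in a list below is to be read beside that share. In a short list, 0 variable genes is near it. All 6 marker genes of the tissue label were well above 0 in every library, as detailed below. The markers are Star, Cyp11a1, Hsd3b1, Cyp21a1 and Cyp11b1 for the cortex and Th for the medulla.

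Several libraries stood apart in the makeup of their RNA. Replicate 1 had few fat-cell transcripts, and 13 of 13 listed fat-cell genes were lowest there. Replicate 3 had the lowest level of 27 of 30 medulla genes and a different pattern of clock genes, and it had the most reads listed over genes (25771905). Replicate 5 held transcripts of liver proteins, led by Alb at 978 FPKM. Replicates 1 and 2 had almost none of the X-zone genes Akr1c18 and Pik3c2g. Results that rest on these libraries are given by library, and with and without them where a count depends on them.

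The 250 bases before the start of 4 genes that the description turns on are shown for orientation, from the RefSeq table of GRCm38.p6. Cyp11a1 is a high cortical gene that did not reach a 4-fold range, and Akr1b7 a high and variable one. Akr1c18 is the most variable gene and Th the medulla marker. Capitals mark matches to AGGTCA or its reverse complement TGACCT, the core letters bound by the cortical factor SF-1 (the product of Nr5a1), and to TGACGTCA, the cyclic AMP response element, which reads the same on both strands. The start in that table can differ from the gene start in the deposited files. The windows lie at chr9:58014702-58014951 (plus strand) for Cyp11a1, chr6:34412112-34412361 (plus strand) for Akr1b7, chr13:4150647-4150896 (minus strand) for Akr1c18 and chr7:142899996-142900245 (minus strand) for Th.
Cyp11a1: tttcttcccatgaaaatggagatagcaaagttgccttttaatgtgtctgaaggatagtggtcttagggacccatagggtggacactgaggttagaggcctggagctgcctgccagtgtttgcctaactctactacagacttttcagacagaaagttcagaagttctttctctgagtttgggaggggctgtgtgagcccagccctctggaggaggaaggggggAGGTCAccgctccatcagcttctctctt
Akr1b7: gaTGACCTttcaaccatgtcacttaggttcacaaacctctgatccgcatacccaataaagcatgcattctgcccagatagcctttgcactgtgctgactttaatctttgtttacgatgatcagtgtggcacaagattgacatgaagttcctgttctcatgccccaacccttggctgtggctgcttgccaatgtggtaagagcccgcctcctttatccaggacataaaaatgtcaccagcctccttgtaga
Akr1c18: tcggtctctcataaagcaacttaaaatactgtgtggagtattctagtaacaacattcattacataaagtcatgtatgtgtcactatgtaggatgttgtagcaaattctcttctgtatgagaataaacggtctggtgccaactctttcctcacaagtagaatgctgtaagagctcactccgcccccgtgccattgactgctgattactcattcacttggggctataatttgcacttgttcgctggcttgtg
Th: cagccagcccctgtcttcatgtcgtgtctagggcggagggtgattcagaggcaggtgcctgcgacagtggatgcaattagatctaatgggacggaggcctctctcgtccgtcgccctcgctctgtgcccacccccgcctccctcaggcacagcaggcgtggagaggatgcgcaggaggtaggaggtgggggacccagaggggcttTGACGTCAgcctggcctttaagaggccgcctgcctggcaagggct
Each is printed 5′ to 3′ on the strand of its gene. Of all 32851 windows of this length in the table, 14.02% held the SF-1 letters and 1.55% the cyclic AMP response element. Windows were found for 20 of the 25 highest genes, and 3 of their 27 windows held the SF-1 letters, those of Akr1b7, Akr1d1 and Cyp11a1. For steroid synthesis 8 of 14 genes matched, and 2 of 9 windows held the SF-1 letters, those of Cyp11a1 and H6pd. For the medulla 23 of 32 genes matched, and 4 of 25 windows held the cyclic AMP response element, those of Cartpt, Chgb, Scg2 and Th. The SF-1 letters were in 2 of the same 25, those of Ddc and Syt1, and 0 of the 9 steroid windows held the cyclic AMP response element. The Akr1c18 window held neither. A match is a description of the letters and not a site of binding.

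Steroid-making genes led the transcriptome. The 8 genes with the highest mean level included Hsd3b1, Cyp21a1, Star, Cyp11b1 and Cyp11a1. These act on steroids or on the supply of cholesterol to them. Akr1b7, which acts on the aldehyde released from the cholesterol side chain, was also among the 8, by a mean that rests largely on replicate 3. The 14 listed genes of steroid synthesis together took 6.67%, 5.99%, 6.75%, 5.81% and 5.77% of reads in replicates 1 to 5 (6.20 ± 0.479%, SD, n = 5). These shares lay close together, with replicates 1 and 3 highest. By comparison the 10 highest genes of each library took between 7.75% and 9.78% of its reads, and 939 to 1130 genes made up 50% of them.

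Star, whose product moves cholesterol to the inner mitochondrial membrane, lies on the plus strand of chromosome 8 in mm10, from 25808513 to 25816119. Its level was 3207, 3763, 4239, 4083 and 3694 FPKM in replicates 1 to 5 (3797 ± 399, n = 5). This is the sum of 3 transcript models, which are named NM_011485, the same with the added words without Deletion, and the same with the added words with Deletion. The model named with Deletion was assigned 13.5%, 1.28%, 7.02%, 11.3% and 10.6% of the level in replicates 1 to 5. In replicate 2 the plain model held 98.7%, whereas in the other 4 libraries the model named without Deletion held between 86.5% and 93.0% and the plain model at most 0.0680%. The models cover the same locus, the sources used here do not give the rule that divides reads among them, and whether the assigned share stands for a changed allele was not tested. The share of reads held by all Star models, 1.73 ± 0.177%, was the highest of any gene here with the mitochondrion term of Gene Ontology. Cyp11a1, the side-chain cleavage enzyme that makes pregnenolone, lies on chromosome 9 from 58015017 to 58027023 (plus strand). It stood at 4148, 2562, 3021, 2280 and 2452 FPKM (2893 ± 754, n = 5), highest in replicate 1, where Star was lowest.

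Hsd3b1, which turns pregnenolone into progesterone, lies on chromosome 3 from 98852194 to 98859794 (minus strand) and had the highest mean level of all 14605 genes. It stood at 6187, 6918, 7767, 7815 and 7311 FPKM (7200 ± 674, n = 5), again lowest in replicate 1. Of its 2 transcript models, NM_001304800 was assigned 24.7% of the level in replicate 1 and between 3.24% and 7.13% in the others. Hsd3b6, the related gene of the zona glomerulosa, had 29.5 ± 10.5 FPKM, with 41.1 in replicate 1 and 14.1 in replicate 3. Any reads common to the family are divided by estimate. Cyp21a1, the 21-hydroxylase, lies on chromosome 17 from 34801348 to 34804426 (minus strand) and stood at 8225, 5968, 6852, 5060 and 5297 FPKM (6280 ± 1290, n = 5). In replicate 1 it exceeded Hsd3b1, and in the other 4 libraries Hsd3b1 was the higher of the pair.

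Cyp11b1, the 11-beta-hydroxylase that completes corticosterone, lies on chromosome 15 from 74834892 to 74841643 (minus strand). It stood at 4066, 2817, 3231, 1911 and 2522 FPKM (2910 ± 806, n = 5), and its highest and lowest libraries, replicates 1 and 4, differed 2.13-fold. Cyp11b2, the aldosterone synthase of the zona glomerulosa, stood at 193, 116, 98.0, 92.0 and 131 FPKM (126 ± 40.4, n = 5), likewise highest in replicate 1 and lowest in replicate 4. Any reads shared by this related pair make the level of Cyp11b2 uncertain, and their number was not measured. Cyp11a1, Cyp21a1, Cyp11b1 and Cyp11b2 were all highest in replicate 1 and lowest in replicate 4, whereas Star and Hsd3b1 were both lowest in replicate 1.

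The electron carriers of the steroid pathway differed in spread. Fdx1, the gene of adrenodoxin, which passes electrons to the mitochondrial P450 enzymes, stood at 209, 363, 826, 363 and 268 FPKM (406 ± 244, n = 5). It was the 1 variable gene of the 14, with a range of 2.03 on the log2 scale. Of all 11643 genes measured for spread, 417 (3.58%) were variable. Fdx1 fell short of 4-fold without replicate 1, without replicate 3 and with no scaling factor (1.90), and then none of the 14 was variable. Fdxr, the adrenodoxin reductase gene, stood at 403 ± 50.3 FPKM and was much steadier, with a range of 0.53. Por, the reductase of the microsomal P450 enzymes, had 139 ± 39.3 FPKM, Cyb5a, the gene of cytochrome b5, 151 ± 15.5 and Tspo, a protein of the outer mitochondrial membrane, 144 ± 21.2 FPKM (n = 5 each). Hsd11b1, which regenerates active glucocorticoid, and H6pd, which supplies it with NADPH, stood at 38.9 ± 6.46 and 38.3 ± 3.18 FPKM. Fdxr, Por, Cyb5a, Tspo, Hsd11b1 and H6pd were chosen for naming after their values were seen. Cyp17a1 and Hsd11b2 of the same list were not analysed here.

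**Figure D1:**
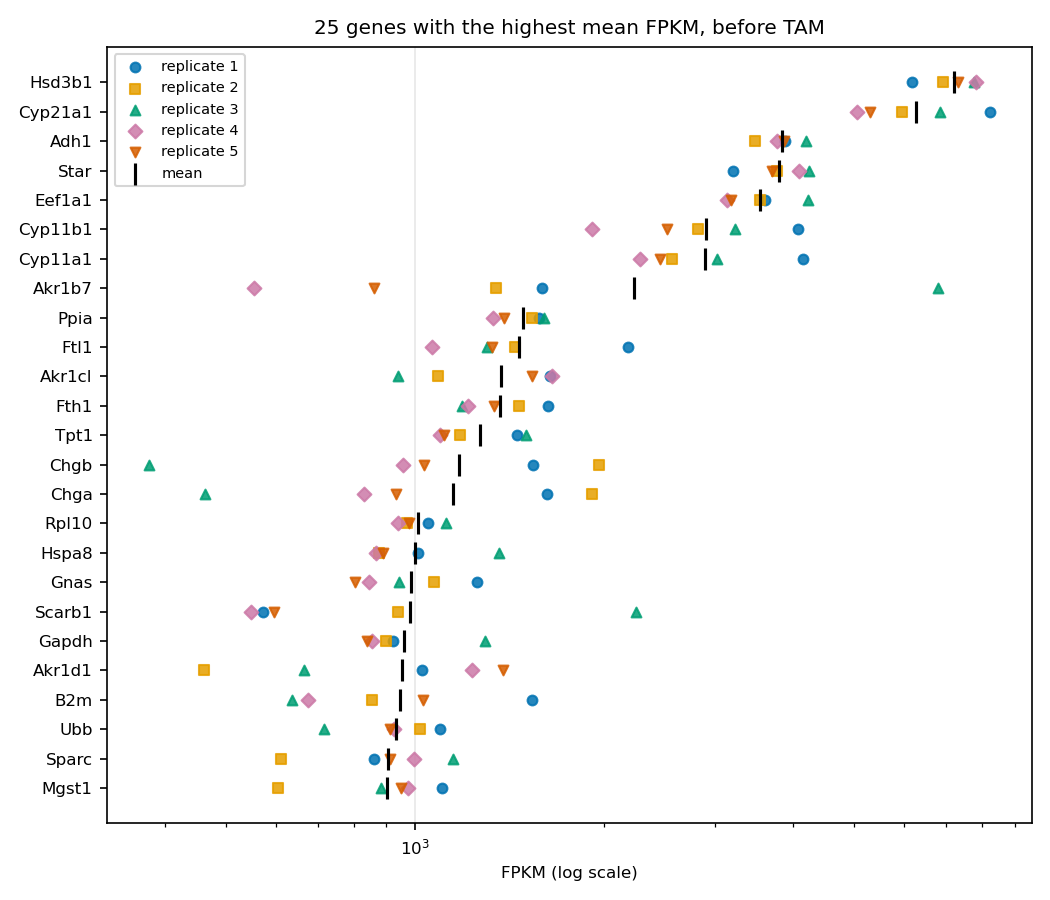
Level (FPKM, log axis) of the 25 genes with the highest mean, with 1 symbol per library and a bar at the mean of 5 libraries. Hsd3b1 leads at a mean of 7200 FPKM with its libraries close together, while Akr1b7 runs from 553 to 6795 FPKM and Chgb from 377 to 1963 FPKM.

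Other genes of the top 25 were enzymes of aldehyde and steroid reduction, translation factors, ferritins and medulla granins. Adh1, an alcohol dehydrogenase, stood at 3876, 3472, 4198, 3765 and 3868 FPKM in replicates 1 to 5. Its mean of 3836 ± 260 FPKM was the third highest, and its libraries lay close together. Akr1b7, an aldo-keto reductase that reduces the aldehyde released when the cholesterol side chain is cut, lies on chromosome 6 from 34412362 to 34423137 (plus strand). It stood at 1593, 1345, 6795, 553 and 860 FPKM, so that replicate 3 was 12.3-fold above replicate 4. Its mean of 2229 ± 2584 FPKM rests largely on replicate 3.

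Akr1cl, another aldo-keto reductase, stood at 1640, 1089, 938, 1650 and 1537 FPKM (1371 ± 333, n = 5). Akr1d1, the steroid 5-beta-reductase, stood at 1026, 462, 665, 1232 and 1381 FPKM (953 ± 384, n = 5). Both were high in replicates 1, 4 and 5 and low in replicates 2 and 3. Members of the aldo-keto reductase 1C family share sequence, so the split of reads between them is uncertain. Of the 12 listed steroid reductases and converters, 3 were variable (2 without replicate 3), and their share of reads ran from 0.562% in replicate 2 to 1.38% in replicate 3.

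Eef1a1, an elongation factor, stood at 3534 ± 434 FPKM, Tpt1, a translationally controlled protein, at 1268 ± 194 and the ribosomal gene Rpl10 at 1011 ± 73.2 FPKM (n = 5 each). The ferritin genes Ftl1 and Fth1, which encode the iron store of the cell, stood at 1463 ± 425 and 1366 ± 183 FPKM, and Ftl1 was highest in replicate 1 (2183 FPKM). B2m, the light chain of MHC class I, was also highest there, at 1532, 854, 637, 676 and 1030 FPKM. Ppia and Ubb, genes used in most cells, had 1485 ± 120 and 933 ± 143 FPKM. Sparc, a matrix protein, had 907 ± 198 FPKM and Mgst1, a membrane glutathione transferase, 903 ± 185 FPKM with its lowest value in replicate 2 (604 FPKM).

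Gnas, the locus of the G protein subunit through which the ACTH receptor acts, stood at 984 ± 183 FPKM. This is the sum of 8 transcript models. NR_003258, a noncoding model by its name, was assigned 69.6%, 60.5%, 64.1%, 58.6% and 58.0% of it in replicates 1 to 5. Hspa8, a constitutive chaperone, stood at 1001 ± 210 and Gapdh, of glycolysis, at 960 ± 188 FPKM. Hspa8 and Gapdh each had their top value in replicate 3, at 1361 and 1292 FPKM. The count of genes at or above 1000 FPKM was 23, 17, 18, 14 and 16 in replicates 1 to 5, and 623 to 695 genes reached 100 FPKM.

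Genes annotated to the mitochondrion held a large share of the message. The deposited annotation gives the Gene Ontology term mitochondrion to 1491 of the genes. Together they took 20.8%, 20.6%, 22.9%, 21.6% and 21.0% of reads in replicates 1 to 5 (21.4 ± 0.934%, n = 5). Replicate 3 was highest and the rest lay from 20.6% to 21.6%. Of the steroid genes, 12 carry the term and made up 22.6 ± 0.753% of the mitochondrial reads. Star, Hsd3b1, Cyp11b1, Cyp11a1, Adh1 and Akr1b7 had the largest shares among genes with the term, which also covers proteins found elsewhere in the cell. Transcripts of the mitochondrial DNA were not analysed here.

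The machinery of respiration took a smaller share. The 47 nuclear genes listed for the respiratory chain and ATP synthase took 0.944%, 0.998%, 1.10%, 1.05% and 0.977% of reads (1.01 ± 0.0629%, n = 5). None of the 47 was variable, which is near the 3.58% of all genes measured for spread. Atp5b and Atp5a1, the catalytic and the alpha subunit of ATP synthase, stood at 677 ± 95.8 and 444 ± 29.7 FPKM, and Cox4i1, of cytochrome c oxidase, at 439 ± 65.0 FPKM. Atp5g1, a membrane subunit of ATP synthase, had the broadest spread of those named, at 177, 101, 130, 74.2 and 83.1 FPKM. On the TMM scale 34 of the 47 were highest in replicate 3, and on FPKM without scaling between libraries 26 were. Terms for the inner membrane and the matrix took 4.65 ± 0.199% and 1.01 ± 0.0543% of reads.

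Genes for mitochondrial shape, import and proteases took 1.10 ± 0.132% of reads, and 0 of the 34 measured for spread were variable. Hspd1, the matrix chaperonin, stood at 864, 633, 1162, 633 and 689 FPKM (796 ± 225, n = 5), highest in replicate 3. Slc25a3, the phosphate carrier, stood at 406, 321, 617, 325 and 315 FPKM, in the same pattern. Prdx3, the mitochondrial peroxiredoxin, had 584 ± 104 FPKM. Of 22 antioxidant genes, 3 were variable (1 without replicate 1 and 1 without replicate 3). Gpx4, the lipid hydroperoxide peroxidase, was among the steadiest genes named, at 271, 273, 275, 279 and 269 FPKM (273 ± 3.75, n = 5). Sod1, the cytosolic superoxide dismutase, had 598 ± 66.1 FPKM. Srxn1, sulfiredoxin, which repairs oxidised peroxiredoxins, stood at 106, 87.0, 448, 80.3 and 61.8 FPKM. Replicate 3 was alone in its high Srxn1.

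Some of the larger shares among genes with the mitochondrion term belonged to genes that feed lipid synthesis, named after their values were seen. That term also covers proteins found elsewhere in the cell. Acly, which makes acetyl-CoA from citrate, stood at 264, 462, 616, 494 and 428 FPKM, and Me1, a source of NADPH, at 387, 314, 728, 632 and 440 FPKM. Fasn, the fatty acid synthase, stood at 17.7, 75.5, 43.9, 198 and 154 FPKM and was variable. Acly and Fasn were lowest in replicate 1, the library with the least fat-cell RNA. The part of fat in these levels was not tested.

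**Figure D2:**
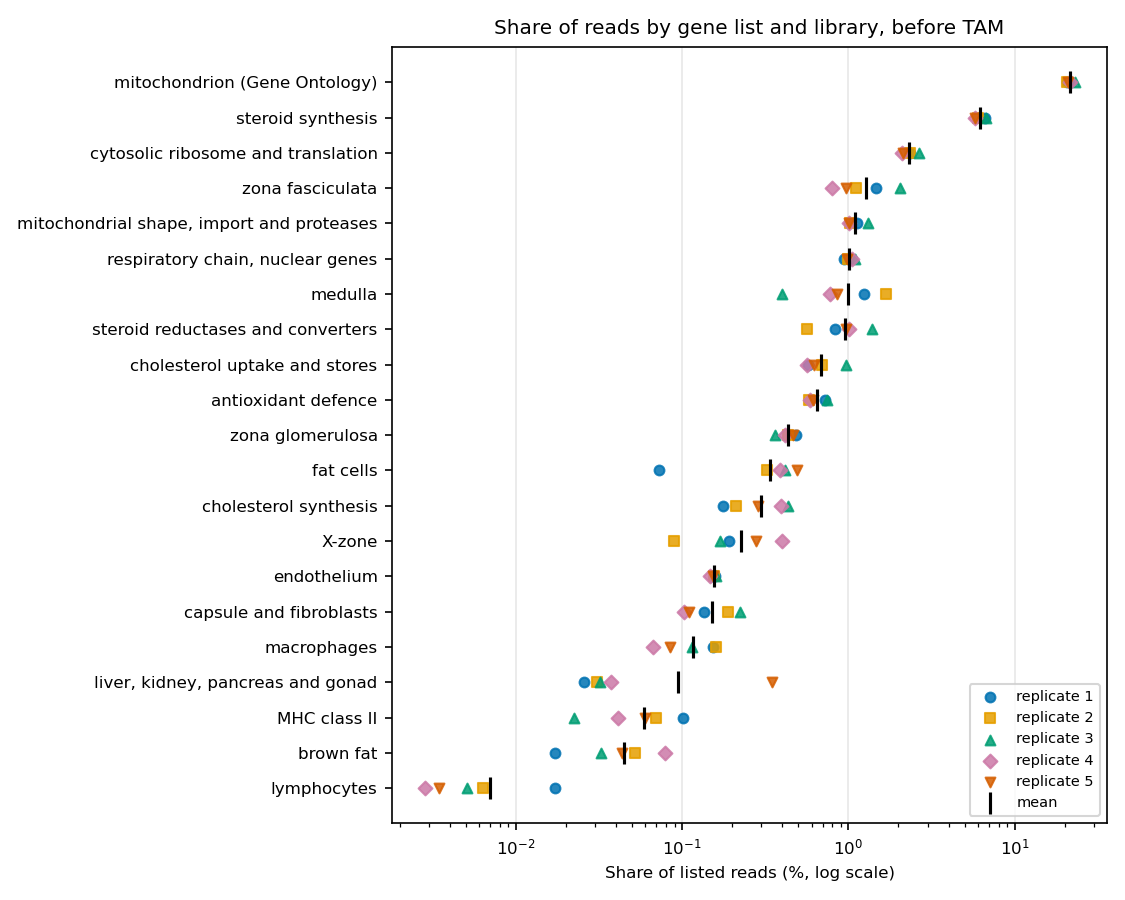
Share of listed reads (percent, log axis) held by 20 gene lists and by the Gene Ontology mitochondrion term in each of the 5 libraries, with a bar at the mean. Steroid synthesis (5.77% to 6.75%) and the mitochondrion term (20.6% to 22.9%) lie close together, while the medulla runs from 0.396% in replicate 3 to 1.69% in replicate 2.

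The listed medulla genes took a small share of reads, which was unequal among libraries. These 32 genes took 1.24%, 1.69%, 0.396%, 0.778% and 0.848% of reads in replicates 1 to 5 (0.992 ± 0.495%, n = 5). The whole RNA of the medulla was not estimated. Replicate 2 was highest and replicate 3 lowest, and this held gene by gene. Of 30 genes measured for spread, 27 were lowest in replicate 3 and 23 highest in replicate 2, with the same counts without scaling. Of the 30, 8 were variable, and 1 remained so without replicate 3 (4 without replicate 2 and 5 without replicate 1).

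Th, tyrosine hydroxylase, the rate-limiting enzyme of catecholamine synthesis, lies on chromosome 7 from 142892776 to 142899966 (minus strand) and ranked 289th by level. It stood at 258, 323, 96.5, 150 and 160 FPKM (197 ± 91.0, n = 5). Ddc, the decarboxylase of the next step, stood at 26.8, 36.2, 11.1, 19.8 and 19.7 FPKM, and Dbh, which makes noradrenaline, at 187, 295, 77.7, 129 and 136 FPKM. Ddc and Dbh, chosen after their values were seen, were likewise highest in replicate 2 and lowest in replicate 3. Pnmt, which turns noradrenaline into adrenaline, stood at 79.0, 624, 148, 219 and 233 FPKM, with a range of 2.97 on the log2 scale. Replicate 1 was lowest for Pnmt though it was second highest for Th and Dbh.

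The granins, cargo proteins of chromaffin granules, were the most abundant medulla transcripts. Chgb, on chromosome 2 from 132781278 to 132795072 (plus strand), stood at 1538, 1963, 377, 955 and 1033 FPKM (1173 ± 604, n = 5). Chga, on chromosome 12 from 102554969 to 102565027 (plus strand), stood at 1619, 1910, 462, 829 and 932 FPKM (1151 ± 596, n = 5). Scg2, secretogranin II, stood at 541, 910, 236, 424 and 449 FPKM. All 3 were highest in replicate 2 and lowest in replicate 3.

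Of the neuropeptides, Npy stood at 476, 440, 120, 179 and 193 FPKM and Gal, galanin, at 82.5, 80.0, 12.6, 25.6 and 35.0 FPKM. Both were high in replicates 1 and 2 alike, unlike Pnmt. Cartpt, another peptide precursor, was low throughout, at 5.88, 4.83, 0.793, 1.12 and 1.66 FPKM. Schwann and sustentacular cells accompany the chromaffin cells. The 4 of their marker genes measured for spread were all lowest in replicate 3, and the whole list of 10 took 0.00567 ± 0.00176% of reads.

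**Figure D3:**
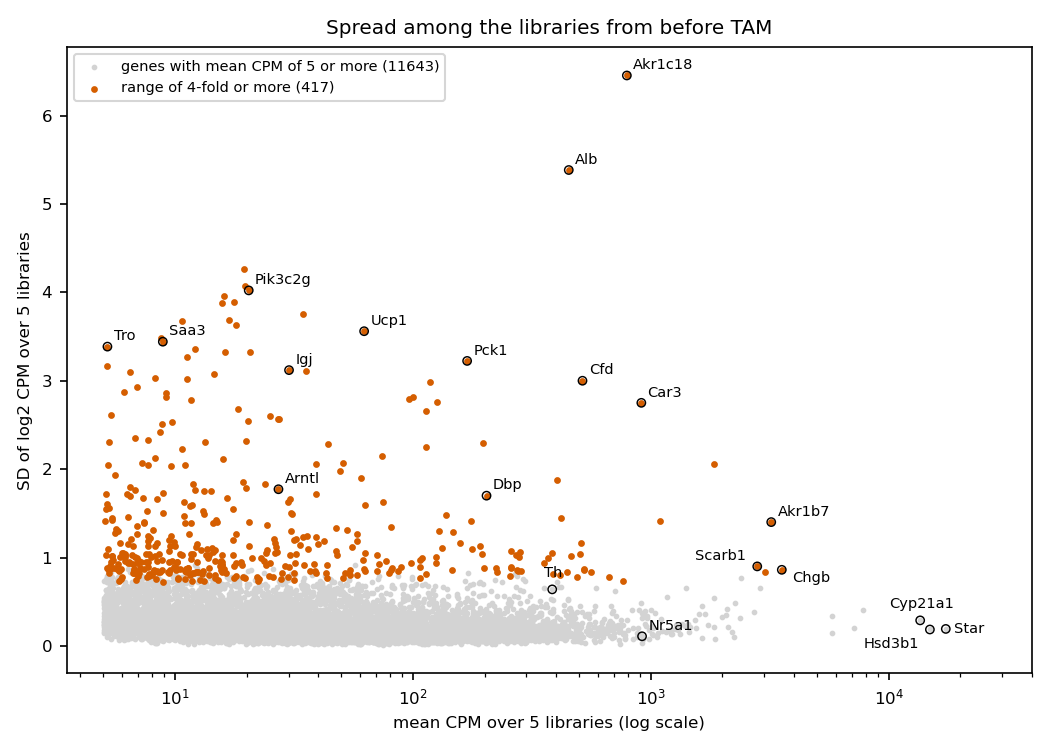
SD of log2 CPM over the 5 libraries against mean CPM (log axis) for the 11643 genes measured for spread, with the 417 variable genes in orange. Star (SD 0.193), Hsd3b1 (0.187), Cyp21a1 and Nr5a1 are high genes that did not reach a 4-fold range. The median SD of all genes shown was 0.187, and Akr1c18 and Alb have SDs of 6.45 and 5.38.

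Most genes varied little. The median SD of log2 CPM was 0.187, with 5% of genes under 0.0679 and 5% over 0.692, and the biological coefficient of variation had a common value of 0.246. Among the 8 steadiest genes of at least 100 CPM were Laptm4a (312 ± 11.4 FPKM), a lysosomal membrane protein, Polr2b (50.4 ± 1.86), of RNA polymerase II, Man1b1 (26.9 ± 0.997), a mannosidase, Macf1 (8.13 ± 0.406), a cytoskeletal linker, Nbr1 (42.5 ± 0.680), an autophagy receptor, Mtmr3 (17.5 ± 0.812), a phosphatase, and Arpc1a (64.9 ± 2.94), of the actin-nucleating complex. Their SDs were 0.02 or 0.03 on the log2 scale.

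The variable genes did not share a single extreme library. Of the 417, the highest library was replicate 1 in 118, replicate 2 in 58, replicate 3 in 86, replicate 4 in 50 and replicate 5 in 105. Replicate 1 was the lowest in 168 and replicate 3 in 121. Of the 417, 225 still spanned 4-fold without replicate 1, 271 without replicate 3 and between 367 and 370 without any other library, and 87 spanned it whichever library was left out. Just past the threshold lay Phgdh, Chdh and Cebpa, with ranges of 2.00 on the log2 scale, and just short of it Esm1 (1.996), Slfn8 (1.993) and Col22a1 (1.991). A gene was also marked where 1 library stood apart from the other 4, by a gap to the nearest of over 0.71 of the whole range. This held for 891 of the 11643 genes (7.65%). Replicate 3 was the high library in 312 of them and the low library in 191.

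On the first principal component of log2 CPM, which held 46.5% of the variance, replicate 1 lay at 48.2, replicate 2 at 8.78, and replicates 3 to 5 at −19.5, −16.2 and −21.2. The second component (26.2%) set replicate 3, at 34.1, apart from replicate 5, at −26.5. Correlations of log2 CPM between libraries, taken across genes, which are not independent, ran from 0.911 between replicates 1 and 5 to 0.971 between replicates 4 and 5. Genes with the largest weights on the first component included Akr1c18, Alb, Pik3c2g and Pck1 at the negative end and Ptprq, Ibsp, Igj and Rhcg at the positive end.

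The most variable gene belonged to the X-zone. Akr1c18, the 20-alpha-hydroxysteroid dehydrogenase, which inactivates progesterone, lies on chromosome 13 from 4132627 to 4150631 (minus strand). It had 2, 12, 10678, 41877 and 21794 reads in replicates 1 to 5, or 0.0695, 0.416, 319, 1779 and 900 FPKM. It was nearly absent from replicates 1 and 2 and among the highest genes of the gland in replicate 4. Pik3c2g, a class II phosphoinositide 3-kinase also used to mark this zone, stood at 0.0230, 0.0229, 1.07, 15.3 and 9.21 FPKM, with 2 reads in each of replicates 1 and 2. Both were highest in replicate 4, next in replicate 5 and then in replicate 3.

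Other listed X-zone genes varied less, and some had another order of libraries. Of the 8 listed, 2 were lowest in replicate 1, 3 in replicate 2, 1 in replicate 3 and 2 in replicate 4. The 2 lowest in replicate 4, where Akr1c18 and Pik3c2g were highest, were Akr1c14, which was variable, and Inhbb. Both were chosen for naming after their values were seen. Sbsn, suprabasin, stood at 72.4, 68.0, 103, 147 and 124 FPKM, with replicate 4 highest, then replicates 5 and 3, as for Akr1c18. Prlr, the prolactin receptor, stood at 38.5, 37.8, 46.8, 47.7 and 55.7 FPKM and was also lowest in replicates 1 and 2. Cyp2f2, a P450 enzyme, stood at 658, 163, 291, 391 and 363 FPKM and was highest in replicate 1. Thrb, a thyroid hormone receptor, stood at 12.0, 7.39, 6.50, 17.7 and 13.8 FPKM, lowest in replicate 3. Of the 8 listed genes, 4 were variable (3 without replicate 1 or replicate 2). The list took 0.192%, 0.0890%, 0.168%, 0.401% and 0.279% of reads. Xist, the RNA of the inactive X chromosome, was present in every library at 37.8, 32.0, 29.6, 34.3 and 35.6 FPKM, and genes of the Y chromosome were not analysed here.

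Fat-cell genes varied as a group. Of the 13 listed, 11 were variable, and 2 were so without replicate 1. The list took 0.0729%, 0.322%, 0.417%, 0.386% and 0.491% of reads, lowest in replicate 1. Cfd, adipsin, a protease that fat cells secrete, stood at 5.99, 641, 691, 480 and 648 FPKM, and Car3, a carbonic anhydrase, at 9.61, 395, 668, 612 and 947 FPKM. Fabp4, a fatty acid carrier of fat cells, stood at 170, 789, 770, 838 and 907 FPKM and Lpl, lipoprotein lipase, at 26.6, 100, 89.5, 139 and 149 FPKM. In all of these replicate 1 stood well below the other 4 libraries.

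Adig, adipogenin, was listed at 0 in replicate 1 and at 11.0, 16.7, 15.5 and 14.2 FPKM in the others, and Pck1, of glyceroneogenesis, at 0.467, 41.1, 73.6, 94.0 and 75.8 FPKM. Lep, the gene of leptin, stood at 0.0250, 0.437, 2.99, 2.55 and 6.36 FPKM. Cd36, a fatty acid receptor that other cells also express, and Acvr1c, an activin receptor, were not variable but were lowest in replicate 1 too. Cd36 stood at 112, 118, 206, 152 and 156 FPKM and Acvr1c at 0.914, 1.16, 1.90, 3.12 and 2.77 FPKM. Among brown fat genes, Ucp1, the uncoupling protein, stood at 0.149, 60.4, 12.2, 93.5 and 4.03 FPKM and Cidea, a lipid droplet protein, at 0.210, 33.6, 19.4, 70.9 and 12.2 FPKM. These were highest in replicates 2 and 4, a different pattern from Cfd, and 6 of 11 brown fat genes were variable (5 without replicate 1). The list took 0.0173%, 0.0518%, 0.0323%, 0.0784% and 0.0432% of reads.

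Transcripts of liver proteins appeared mainly in replicate 5. Alb, albumin, on chromosome 5 from 90460889 to 90476603 (plus strand), had 2, 9, 302, 27 and 41282 reads, or 0.0399, 0.179, 5.17, 0.658 and 978 FPKM. In the order of SDs it stood second after Akr1c18. Ttr, transthyretin, reached 64.9 FPKM in replicate 5 and at most 0.459 in the others. Mup3, a major urinary protein, reached 86.4 FPKM, Kng1, kininogen, 23.3, Mat1a, the methionine adenosyltransferase of hepatocytes, 20.2 and Slc38a3, a glutamine carrier, 19.7 FPKM there, with 0.358, 0.210, 0.164 and 0.299 FPKM as the highest of the other libraries.

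The 4 near-identical genes Serpina1a, Serpina1b, Serpina1c and Serpina1d, which encode alpha-1 antitrypsin, had 50.2, 49.4, 60.5 and 47.8 FPKM in replicate 5 and no more than 0.608 elsewhere. Trf, transferrin, which many tissues make, stood at 53.1, 88.8, 96.8, 120 and 371 FPKM. A further set was present in replicate 2 as well. Mup2 stood at 0.119, 31.3, 1.21, 0.334 and 65.3 FPKM, Mup10 at 0.0546, 19.5, 1.15, 0.737 and 40.2 FPKM, and Gm2083 at 0.127, 63.1, 3.32, 1.17 and 108 FPKM. Reads of this family cannot be assigned with certainty to single members. Apoc1, a lipoprotein component placed on the zona glomerulosa list, stood at 1.32, 29.1, 26.5, 38.5 and 108 FPKM, and Itih4, a plasma protein, at 0.0130, 3.31, 2.37, 1.48 and 21.8 FPKM.

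Over the whole list for liver, kidney, pancreas and gonad, the share of reads was 0.0258%, 0.0307%, 0.0322%, 0.0373% and 0.347%. Its mean of 0.0946% became 0.0315% without replicate 5. Of 6 genes measured for spread, 4 were variable, and 2 without that library. Steroid synthesis took 5.77% of reads in that library, the lowest of the 5, and up to 6.75% in the others. The source of the liver transcripts was not tested.

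**Figure D4:**
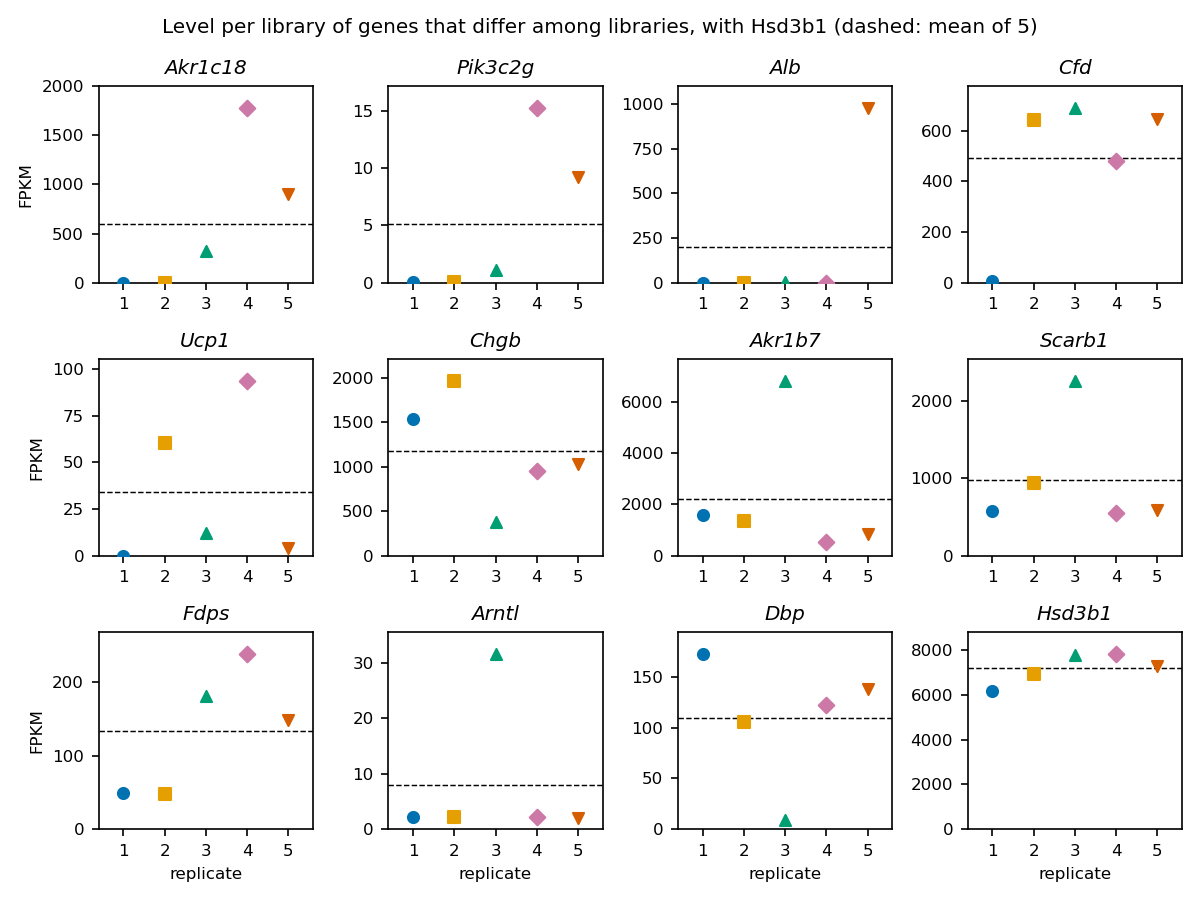
Level (FPKM, linear axes from 0) of 12 genes in each of the 5 libraries, with a dashed line at the mean. Akr1c18 and Pik3c2g are near 0 in replicates 1 and 2, Alb is high in replicate 5 only (978 FPKM), Cfd is low in replicate 1 only (5.99 FPKM), and Hsd3b1 stays between 6187 and 7815 FPKM.

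Replicate 3 had the highest level of Scarb1 and of some of the genes listed for the ACTH receptor and cyclic AMP. Scarb1, the receptor that takes cholesterol esters from HDL, stood at 572, 940, 2250, 548 and 595 FPKM (981 ± 727, n = 5). Mrap, the accessory protein that carries the ACTH receptor to the cell surface, stood at 120, 112, 456, 166 and 127 FPKM, and the receptor gene Mc2r at 229, 225, 301, 201 and 204 FPKM. All 3 were highest in replicate 3, as were Akr1b7 and Fdx1. Abcb1b, a drug efflux pump of the fasciculata list, had 188 ± 44.3 FPKM and was highest in replicate 4. Of 11 fasciculata genes, 2 were variable, and 0 without replicate 3. That list took 1.47%, 1.11%, 2.04%, 0.798% and 0.973% of reads. Replicate 3 was highest in 5 of its 11 genes and lowest in 1. Of 18 genes for the ACTH receptor and cyclic AMP, 3 were variable, and 1 without replicate 3. Replicate 3 was highest in 8 of these 18 and lowest in 3. Nr4a1, a factor that ACTH induces, stood at 119, 230, 121, 180 and 51.1 FPKM and was highest in replicate 2.

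Cholesterol synthesis was low in replicates 1 and 2 together. Its 22 genes took 0.175%, 0.210%, 0.431%, 0.391% and 0.287% of reads, and 21 of the 22 were lowest in replicate 1 or 2. All 22 were highest in replicate 3 or 4. Fdps, farnesyl diphosphate synthase, stood at 49.0, 47.8, 181, 238 and 149 FPKM, and Idi1, the isomerase before it, at 15.9, 18.4, 87.7, 73.2 and 45.2 FPKM. Msmo1, a sterol oxidase, stood at 68.7, 64.0, 188, 202 and 128 FPKM and Hmgcs1, of the first steps, at 31.1, 56.5, 140, 133 and 83.9 FPKM. Dhcr7, the last reductase, departed from this, at 135, 159, 354, 156 and 118 FPKM, high in replicate 3 alone. Of the 22 genes, 5 were variable, and 3 without replicate 3. On FPKM without scaling, 20 of the 22 were lowest in replicate 1 or 2.

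Genes of cholesterol uptake and stores took 0.685 ± 0.165% of reads, and 2 of 17 were variable (1 without replicate 3). Scarb1 did not stand for the list: replicate 3 was highest in 3 of the 17 genes and lowest in 8. Apoe, the apolipoprotein that the gland itself makes, stood at 871, 692, 544, 399 and 668 FPKM. Soat1, which esterifies cholesterol for storage, had 109 ± 19.5 FPKM and Plin2, a coat protein of lipid droplets, 119 ± 23.6 FPKM. Apoe and Soat1 were both highest in replicate 1, where fat-cell RNA was least. Plin4, a droplet protein of fat cells, stood at 0.248, 7.25, 15.4, 23.0 and 30.6 FPKM and was lowest there.

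The factors that maintain cortical cells held a similar share of reads in each library. The median SD of the 10 measured for spread was 0.217 on the log2 scale, against 0.187 over all genes. Nr5a1, SF-1, stood at 253, 315, 269, 276 and 276 FPKM (278 ± 22.8, n = 5) and Ctnnb1, beta-catenin, at 251 ± 25.3 FPKM. The list of 11 took 0.251 ± 0.0155% of reads. Gata4 was the 1 variable gene of the 10 measured for spread (0 without replicate 1), and Wt1 lay just under the 5 CPM minimum. Gata4 stood at 6.81, 0.743, 0.567, 0.822 and 0.955 FPKM and Wt1, a factor of the adrenogonadal lineage, at 3.31, 1.39, 1.83, 0.258 and 0.391 FPKM. Both were highest in replicate 1.

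Genes of the zona glomerulosa took 0.432 ± 0.0476% of reads, and 1 of 15 was variable (0 without replicate 1). Kcnk3, a potassium channel, stood at 433 ± 67.6 FPKM, Dab2, an adaptor for endocytosis, at 218 ± 21.4 and Agtr1a, the angiotensin II receptor, at 121 ± 21.3 FPKM. Wnt4, a signal of the outer cortex, stood at 119, 93.2, 50.1, 70.9 and 97.1 FPKM and was lowest in replicate 3.

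Clock genes set replicate 3 apart. Arntl, which encodes BMAL1 of the positive limb, stood at 2.10, 2.24, 31.5, 2.16 and 2.05 FPKM, and its partner Npas2 at 0.146, 0.175, 2.41, 0.214 and 0.104 FPKM. The output factor Dbp ran the other way, at 173, 106, 9.11, 123 and 138 FPKM, as did Nr1d1, the repressor of Arntl, at 105, 49.0, 15.3, 75.1 and 74.1 FPKM and Tef at 69.2, 76.3, 30.8, 71.2 and 73.5 FPKM. Of 18 clock genes 6 were variable, and 0 without replicate 3. The sources used here do not give the time of day at which glands were taken, and its part in these values was not tested.

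**Figure D5:**
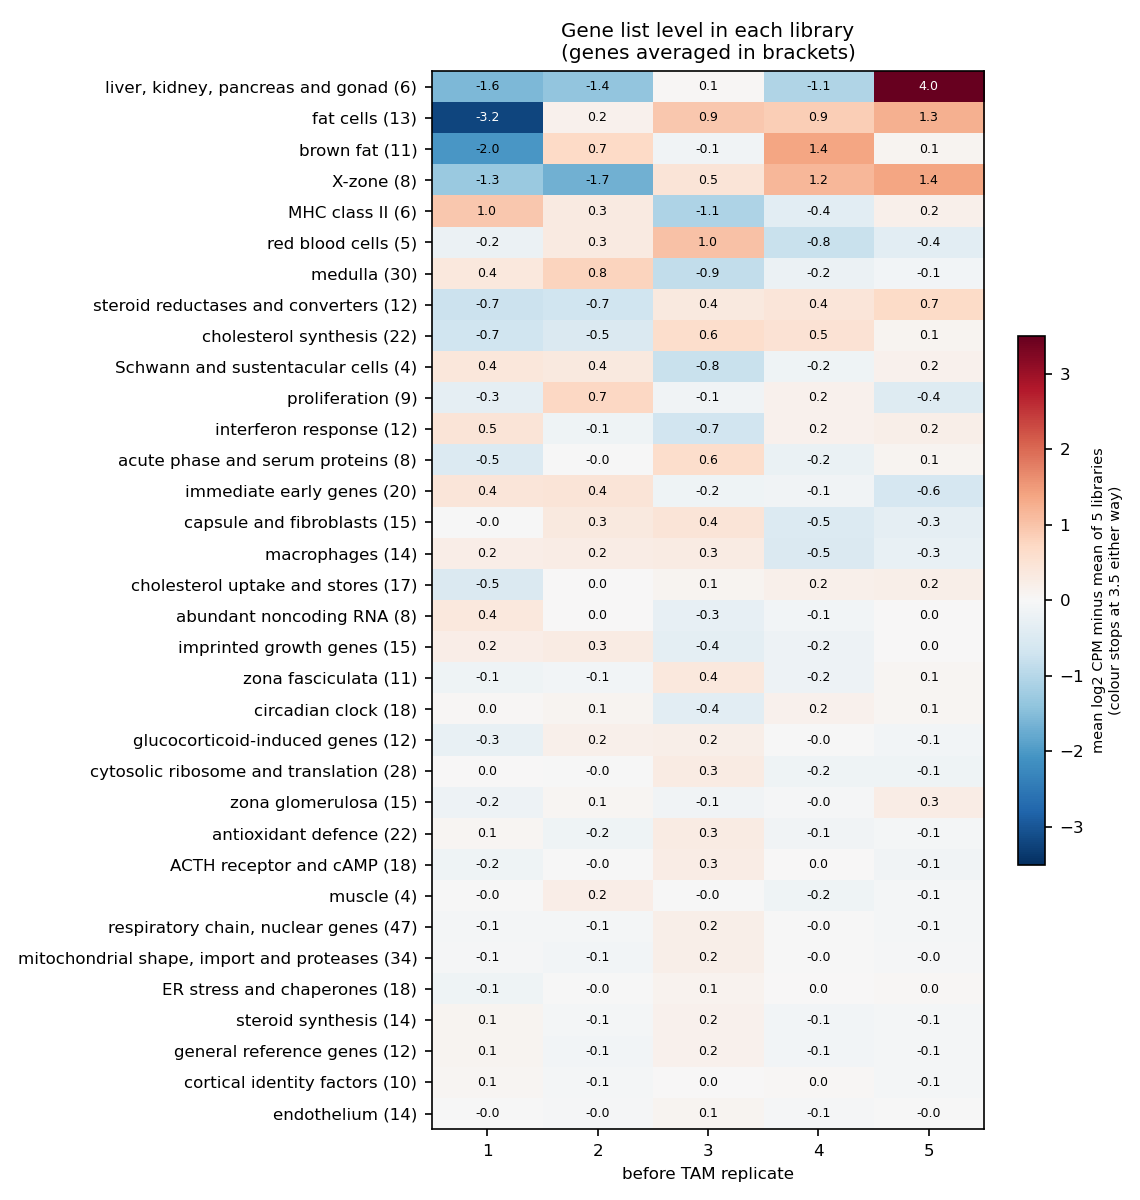
Mean log2 CPM of each gene list in each library minus the mean of the 5 libraries, with red for higher and blue for lower and the number of genes averaged in brackets. Fat cells in replicate 1 (−3.21) and the list for liver, kidney, pancreas and gonad in replicate 5 (3.95) stand out, while steroid synthesis lies between −0.11 and 0.15.

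Marker lists of other cells of the gland took small shares of reads. A share is that of the listed genes and not of all RNA of a cell type. Endothelial genes had nearly the same share in every library, with 0.158%, 0.155%, 0.160%, 0.148% and 0.153% of reads. Of the 14 genes 0 were variable, which is near the 3.58% of all genes. Emcn, endomucin, had 97.7 ± 5.96 FPKM and Pecam1 38.1 ± 3.09 FPKM. Capsule and fibroblast genes took 0.152 ± 0.0524% of reads. Dcn, decorin, stood at 60.5, 207, 249, 64.0 and 76.2 FPKM and Col3a1, a fibrillar collagen, at 25.2, 61.0, 76.6, 25.4 and 28.4 FPKM. Both were high in replicates 2 and 3, and 2 of 15 genes were variable (0 without replicate 3).

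Macrophage genes took 0.153%, 0.161%, 0.114%, 0.0663% and 0.0842% of reads. Lyz2, lysozyme, stood at 486, 646, 375, 152 and 218 FPKM, Ctss, a lysosomal protease, at 185, 158, 90.9, 64.7 and 92.3 FPKM, and C1qa, of complement, at 63.4 ± 11.7 FPKM. Cd163, a scavenger receptor, departed from them, at 0.321, 2.21, 6.64, 1.27 and 1.10 FPKM. Of 14 genes, 2 were variable (1 without replicate 2 or replicate 4). MHC class II genes were highest in replicate 1 and lowest in replicate 3 in 6 of 6, with Cd74 at 347, 258, 85.9, 150 and 210 FPKM and H2-Ab1 at 96.8, 63.1, 16.4, 37.2 and 57.8 FPKM. Of these 6, 3 were variable, and 0 without replicate 1 or without replicate 3.

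Lymphocyte genes took 0.0172% of reads in replicate 1 and between 0.00283% and 0.00630% in the others. Igj, the immunoglobulin J chain of plasma cells, stood at 45.6, 9.71, 8.73, 0.190 and 0.598 FPKM, and Ptprc, the CD45 of all white blood cells, at 7.31, 4.81, 3.95, 3.66 and 4.34 FPKM. The 5 genes of the red cell list measured for spread, 4 haemoglobin genes and Alas2, of haem synthesis, were all highest in replicate 3 and lowest in replicate 4, with Hba-a1 at 444, 644, 992, 330 and 411 FPKM. The neutrophil genes S100a8 and S100a9 reached 28.5 and 30.4 FPKM in replicate 2, against at most 4.38 and 4.87 FPKM elsewhere. Both lay under the 5 CPM minimum, so their spread was not called.

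Genes that answer quickly to stimuli differed among libraries. Of 20 immediate early genes, 6 were variable (2 without replicate 5 and 3 without replicate 2). Fos stood at 35.3, 48.3, 15.9, 5.28 and 1.66 FPKM and Egr1 at 133, 70.6, 22.8, 21.3 and 11.1 FPKM. Both were highest in replicates 1 and 2 and lowest in replicate 5. Of 12 interferon response genes, 11 were lowest in replicate 3, among them Ifit3 at 32.6, 21.5, 7.31, 27.7 and 32.8 FPKM, and 2 were variable (1 without replicate 1 and 0 without replicate 3).

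Of 8 genes of acute phase and serum proteins, 7 were variable, and no fewer than 6 whichever library was left out. The list took 0.341 ± 0.181% of reads. C3, the central complement component, stood at 648, 308, 223, 449 and 1003 FPKM. Hp, haptoglobin, stood at 1.03, 30.8, 182, 36.2 and 59.3 FPKM, Orm1, orosomucoid, at 0.901, 9.37, 10.6, 31.2 and 40.0 FPKM, and A2m, alpha-2-macroglobulin, at 59.1, 1.48, 1.80, 2.73 and 6.75 FPKM. Saa3, serum amyloid A3, stood at 0.614, 23.5, 46.9 and 1.69 FPKM in replicates 1 to 4 and was listed at 0 in replicate 5. Each of these genes had its own order of libraries.

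Several of the most variable genes belonged to no list. Ptprq, a phosphatase, had 4.04 FPKM in replicate 1 and at most 0.0706 elsewhere. Ibsp, a bone matrix protein, stood at 23.2, 0.499, 0, 0.637 and 1.78 FPKM and Rhcg, an ammonium transporter, at 14.3, 1.17, 0.821, 0.286 and 0.185 FPKM. Coro2a, an actin-binding protein, stood at 24.4, 4.34, 1.44, 2.61 and 3.31 FPKM. These 4 were highest in replicate 1. Upk3b, a uroplakin found in mesothelium, stood at 0.0600, 5.75, 5.23, 0.0245 and 0.143 FPKM, Gpr133, an adhesion receptor, at 0.126, 3.05, 3.28, 0.231 and 0.365 FPKM and Slpi, a protease inhibitor, at 2.05, 8.49, 15.1, 1.19 and 0.0552 FPKM. All 3 were highest in replicates 2 and 3. Arg1, arginase, stood at 0.0276, 3.00, 11.2, 0.0674 and 11.4 FPKM and Tro, trophinin, at 1.62, 0.00502, 0.00151, 0.307 and 1.34 FPKM.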

How the data were processed

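Libraries of adrenal RNA were made with a stranded kit for mRNA, per the labels' protocols. The submitters' processing notes name mm10 (GRCm38), TopHat2 2.0.14 and bcl2fastq 2.17. The sources used here do not give the quantifier. The authors deposited an expected count (an estimated count, of which 44.2% to 45.2% per library were whole to within 1e-06) and FPKM for each transcript, per the file headers. The deposited FPKM equals the expected count over transcript width and a read total per library, of which the listed reads were 88.4% to 90.2%. Near-identical genes share reads under this counting.

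Both values were summed per gene, and counts were rounded to whole numbers. Scaling was edgeR 4.0.16 TMM (R 4.3.3), with log2 CPM at a prior count of 2 and a minimum mean of 5 CPM. DESeq2 1.42.0 gave other size factors. Tables were made with Python 3.11.15 and pandas 2.3.3. In simulated data with 1 library changed, 0 of 50 genes changed 2-fold, 45 of 50 changed 4-fold and 50 of 50 changed 8-fold spanned 4-fold, with 0 false calls among 11443 unchanged genes. Every simulated gene had the median biological coefficient of variation (0.177), which is under the common value of 0.246. The count of false calls therefore says nothing of genes with a greater spread. Coordinates are 1-based on mm10. The members and lists were chosen with earlier results of these data known. Named genes are the 6 markers, the 25 highest by mean FPKM, the 24 of largest and the 8 of smallest SD, the 6 largest loadings each way on 2 components, and per list up to 5 highest members and the 2 of largest SD. The text gives only some of them, and those outside this rule are said to be. Alternatives covered scaling, filter, prior count, unit, denominator and each library left out.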

Additional observations from a re-analysis of the deposited data

Results flagged for a closer look

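Each value here came from 1 library that stood apart from the other 4, by a gap to the nearest of more than 0.71 of the range (on log2 CPM for genes and on the share of reads for lists). Chance alone flags about 1 in 20 groups, and of all 11643 genes measured for spread 891 (7.65%) stood apart in this way. Of the named genes 25 of 161 did, and of the lists 5 of 37. The named genes were partly chosen for their spread.

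Replicate 1 was lowest in Adig (listed at 0), Car3 (9.61 FPKM), Cfd (5.99 FPKM), Fabp4 (170 FPKM), Lpl (26.6 FPKM) and Pck1 (0.467 FPKM), all of them genes of fat cells or their lipid metabolism. It was highest in Gata4 (6.81 FPKM), Ptprq (4.04 FPKM) and the lymphocyte list (0.0172% of reads).

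Replicate 3 was highest in Arntl (31.5 FPKM), Dhcr7 (354 FPKM), Gapdh (1292 FPKM), Hspa8 (1361 FPKM), Mc2r (301 FPKM), Mrap (456 FPKM) and Srxn1 (448 FPKM), and in the list of ER stress and chaperones (0.972% of reads). It was lowest in Dbp (9.11 FPKM), Tef (30.8 FPKM) and the circadian clock list (0.132% of reads).

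Replicate 5 was highest in Kng1 (23.3 FPKM), Mat1a (20.2 FPKM), Mup3 (86.4 FPKM), Slc38a3 (19.7 FPKM) and Ttr (64.9 FPKM), and in the list for liver, kidney, pancreas and gonad (0.347% of reads). Replicate 2 was lowest in Mgst1 (604 FPKM) and highest in Mtmr3 (18.6 FPKM) and in the list of mast cells and neutrophils (0.00606% of reads). Replicate 4 was lowest in Man1b1 on the log2 CPM scale (26.2 FPKM). Man1b1 and Mtmr3 are among the 8 steadiest genes, so the gaps behind these 2 flags are small.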

How the results depend on the processing

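The steroid synthesis share of 6.20% was 5.53% of the read total implied by FPKM, and from 6.06% to 6.31% with 1 library left out. The respiratory chain share of 1.01% was 0.905% of the implied total and 2.27% of summed FPKM. The mitochondrion share of 21.4% was 19.1% and 25.1% on the same scales. The medulla share stayed within its SD (0.816% to 1.14% with 1 library left out). Of the 25 highest genes by FPKM, 15 were also among the 25 highest by share of reads. The 417 variable genes became 1139 with no filter, 166 at a mean of 20 CPM and 234 on log2(FPKM + 1), and from 236 (without replicate 1) to 388 with 1 library left out. Without replicate 3 there were 288. The first component held 46.5% with DESeq2 size factors, 45.9% with no scaling factor, 40.8% with no filter, 52.5% at 20 CPM and 40.0% with genes at unit variance, and from 44.1% to 59.5% with 1 library left out. With no scaling factor Chga, Cd74 and Dlk1 crossed to variable, and Fdx1, Cyp2f2 and Mrap crossed out. Of the 168 named genes, DESeq2 size factors and a prior count of 0.5 moved 0 across the threshold and log2(FPKM + 1) moved 10, and leaving out 1 library changed 49 of 840 such calls. The share of summed FPKM moved 19 of 34 lists by more than their SD, the implied total 9, and leaving out 1 library 0 of 170. Counts of variable genes per list without each library, and the unscaled orders of libraries, were added after seeing the data, and 31 of 185 such counts moved by over 1.5 times. No paired analysis was possible because there is 1 group.

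The depth behind a level near 0 was a few reads, so Akr1c18, Pik3c2g and Alb were measured at 2 reads in replicate 1, and ratios to such libraries are not given. Of 14605 genes, 2962 lay under the 5 CPM minimum and their spread was not called. Counting error alone is covered by these limits.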

Other observations

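Imprinted growth genes took 0.375 ± 0.0922% of reads (n = 5), and 0 of 15 were variable. Meg3, a long noncoding RNA, stood at 443, 395, 163, 242 and 290 FPKM in replicates 1 to 5 and Dlk1, a membrane protein of the same imprinted locus, at 103, 158, 39.7, 60.7 and 61.8 FPKM. Both were lowest in replicate 3, the library with the least medulla RNA. Peg10 (104 ± 6.37 FPKM) was steady, and Cdkn1c, a cell cycle inhibitor, stood at 183, 97.9, 200, 81.7 and 88.4 FPKM, highest in replicate 3. The part of the medulla in these levels was not tested.

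Of the abundant noncoding RNAs (0.479 ± 0.0405% of reads), Neat1, the scaffold of paraspeckles, stood at 367, 300, 604, 537 and 473 FPKM and Malat1 at 91.2 ± 21.1 FPKM, and 1 of 8 was variable (0 without replicate 1 or replicate 3). Proliferation genes were low, at 0.0237 ± 0.00647% of reads, with 8 of 9 highest in replicate 2. Ccnb1, cyclin B1, stood at 1.04, 4.02, 1.16, 2.11 and 0.940 FPKM. Ribosome and translation genes took 2.32 ± 0.232% of reads and 0 of 28 were variable. On the TMM scale 28 of 28 were highest in replicate 3, and 25 of 28 on FPKM without scaling. The share of all genes highest in that library is not given here, so these counts are not particular to the list. Genes that glucocorticoids induce took 0.0966 ± 0.0103% of reads, and 1 of 12 was variable (0 without replicate 1). General reference genes, among them Actb (544 ± 42.0 FPKM) and Hsp90ab1 (791 ± 56.1 FPKM), took 1.06 ± 0.0726%, and 0 of 12 were variable. Smooth muscle genes and Des, desmin, took 0.0128 ± 0.00221% of reads.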
